A study of Homo sapiens with 6 samples.

Results

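ITPR1 encodes the type 1 inositol trisphosphate (IP3) receptor, a calcium release channel of the endoplasmic reticulum. The authors' deposited table of 3838 ATAC-seq regions, with folds read here as lower accessibility under the BET bromodomain inhibitor JQ1, held 5 regions inside ITPR1 on chromosome 3. They were chosen by position, as all regions of the table that lie wholly inside the gene body on GRCh38. ATAC-seq maps open chromatin by the places where a transposase can insert sequencing adapters, and JQ1 keeps BET proteins from binding acetylated histones. The samples were 6 libraries from established human myeloma lines, of which there were 3: RPMI8226, KMS-12 and KMS-11, all labelled wild type. In each line 1 library came from cells treated with 1 µM JQ1 for 72 h and 1 from control cells given an equal volume of DMSO, the solvent.

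Every value below is a log2 fold change of JQ1 over DMSO within 1 line, with the base and direction assumed, since the table's header states neither. Shares given as JQ1 signal in percent of DMSO rest on both assumptions. Were the direction the other one, the same shares would be DMSO signal in percent of JQ1, and with another log base they would differ. The table lists only folds below 0, and in all 3838 regions the authors' count of lines in common matched how many lines had a fold of -0.5 or lower, so each region has at least 2 such lines. The sign of every ITPR1 value was therefore set when the table was made, and the values are given as a description with no test. With 1 library per line and treatment, a fold within a line has no replicate check, and n = 3 lines is the only replication. Read depth is unknown because no counts were given. The table holds folds and not levels, so the myeloma identity of the cells was not checked against markers here. No gene expression was analysed, and a gene name marks where a region lies.

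IP3 receptors sit in the membrane of the endoplasmic reticulum as tetramers and open when they bind IP3 together with calcium. IP3 is made by phospholipase C enzymes downstream of G protein-coupled receptors and, in B lineage cells, of the antigen receptor. Calcium released through the channel acts on calmodulin, calcineurin and NFAT factors, and the store is refilled by SERCA pumps and by store-operated entry through STIM and ORAI proteins. In antibody-secreting cells the same calcium store also serves the folding of secreted glycoproteins, and in humans loss of ITPR1 function causes a spinocerebellar ataxia.

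The ITPR1 promoter is shown because none of the 5 regions reached it. The sequence is the 250 bases before the gene's start in RefSeq (GRCh38.p14, plus strand, chr3:4493098-4493347), and the capitals mark the 184 bases between the start of ITPR1 and that of the divergent noncoding gene ITPR1-DT, which is read from the minus strand.
ITPR1 promoter: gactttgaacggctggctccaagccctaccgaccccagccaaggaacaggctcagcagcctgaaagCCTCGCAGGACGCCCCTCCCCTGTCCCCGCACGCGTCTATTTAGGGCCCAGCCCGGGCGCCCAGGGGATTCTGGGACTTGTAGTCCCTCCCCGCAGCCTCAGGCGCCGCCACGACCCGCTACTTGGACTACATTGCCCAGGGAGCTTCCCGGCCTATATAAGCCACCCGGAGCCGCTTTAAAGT

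With the next 50 bases this promoter window had a GC content of 63.3% and 19 CpG dinucleotides, against medians of 58.7% and 14 over the 35116 promoter windows of the RefSeq table. The nearest ITPR1 region began 13.7 kb further into the gene. None of the 5 ITPR1 regions overlapped the promoter window of any gene, against 106 of all 3838 regions (2.76%). Searched on both strands, the window held none of the letters CCGGAA (the core bound by ETS factors such as FLI1, present in 17.2% of all promoter windows), CACGTG (the E-box of MYC and MAX, 7.26%), TGANTCA (AP-1, 7.71%), ATGCAAAT (the octamer of POU factors, 1.77%), the interferon regulatory factor repeat of 2 GAAA blocks set 2 bases apart (3.57%) or GATAA (GATA factors, 22.7%). This says only that these letters are not in that window. The sequences of the 5 regions themselves were not analysed here.

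The 5 regions were spread over 319 kb of the 354 kb gene and are numbered from its start. Region 1 (chr3:4507140-4507442, 303 bp) was centred 13.9 kb after the start of the gene and region 2 (chr3:4519040-4519328, 289 bp) 25.8 kb after it. Region 3 (chr3:4570848-4571227, 380 bp) was centred 77.7 kb after the start, at 21.9% of the gene's length. Regions 1 to 3 thus lay near the start of ITPR1, with gaps of 11.6 kb and 51.5 kb between them. Region 4 (chr3:4720808-4720988, 181 bp) followed after a gap of 150 kb, at 64.3% of the gene's length. Region 5 (chr3:4825889-4826231, 343 bp) came after a further 105 kb, at 93.9%. The gene table gives no exons, so whether a region is exonic, intronic or in a UTR was not determined.

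Region 5 also lay inside LOC124906209, a long noncoding RNA gene read from the minus strand, opposite to ITPR1, so that it belongs to both genes by position. The other regions lay in ITPR1 alone among protein-coding and long noncoding genes. EGOT, a noncoding RNA gene nested in ITPR1 on the minus strand, was 28.2 kb from the nearest of them, region 4. The nested noncoding genes LOC105376933 and LOC124906210 were 10.7 kb from region 3 and 10.5 kb from region 4. All 5 regions were narrower than the median width of 393 bp over the table. Region 4 was the narrowest of them, and 3.47% of all regions were narrower still.

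The largest single change at ITPR1 was at region 1 in KMS-11. For region 1 the authors' deposited table gave KMS-11 -1.61, KMS-12 -0.72 and RPMI8226 -0.40. These folds correspond to JQ1 signals at 32.7%, 60.9% and 75.9% of the DMSO signal in those lines. KMS-11 thus stood apart at region 1, and 2.87% of all regions had a lower KMS-11 value. The mean of region 1 over lines was -0.91 ± 0.63 (SD, n = 3 lines), the lowest mean of the 5, and 20.2% of all regions had a lower mean. That place rested on KMS-11: without it the mean of region 1 was -0.56, above those of region 4 (-0.86), region 3 (-0.85) and region 2 (-0.58).

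Region 2 was next along the gene, and there the authors' deposited table gave KMS-11 -0.90, KMS-12 -0.66 and RPMI8226 -0.49. The lines were in the same order as at region 1 but closer together, with a mean of -0.69 ± 0.21 (SD, n = 3 lines). Its RPMI8226 value lay just short of the -0.5 at which a line was counted, so region 2 was counted as common to 2 lines.

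Region 3 was the most even of the 5 and the only one that the authors counted as common to 3 lines. By the authors' deposited table, KMS-11 had -0.96 there, KMS-12 -0.89 and RPMI8226 -0.81, or 51.5%, 53.8% and 56.9% of the DMSO signal. The mean was -0.89 ± 0.072 (SD, n = 3 lines), and 2.11% of all regions had a smaller SD. Region 3 was thus about as low on average as region 1, with lines that differed by at most 0.14.

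Region 4 had its lowest value in KMS-12. There the authors' deposited table gave KMS-12 -1.53, KMS-11 -0.69 and RPMI8226 -0.19, which is 34.6%, 61.8% and 87.8% of the DMSO signal. Among all regions, 7.40% had a lower value in KMS-12 and 87.3% a lower value in RPMI8226. The mean was -0.80 ± 0.68 (SD, n = 3 lines), the widest spread of the 5, and it was -0.44 without KMS-12.

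At region 5, near the end of the gene, the authors' deposited table gave KMS-11 -1.33, KMS-12 -0.083 and RPMI8226 -0.56. Its KMS-12 value was the nearest to 0 of the 15 values at ITPR1, at 94.4% of the DMSO signal, and 95.3% of all regions had a lower value in that line. KMS-11 was low there too, at 39.7% of the DMSO signal. The mean was -0.66 ± 0.63 (SD, n = 3 lines), the highest of the 5. It was -0.32 without KMS-11, and without KMS-12 it was -0.94, with region 4 then the highest at -0.44.

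**Figure D1:**
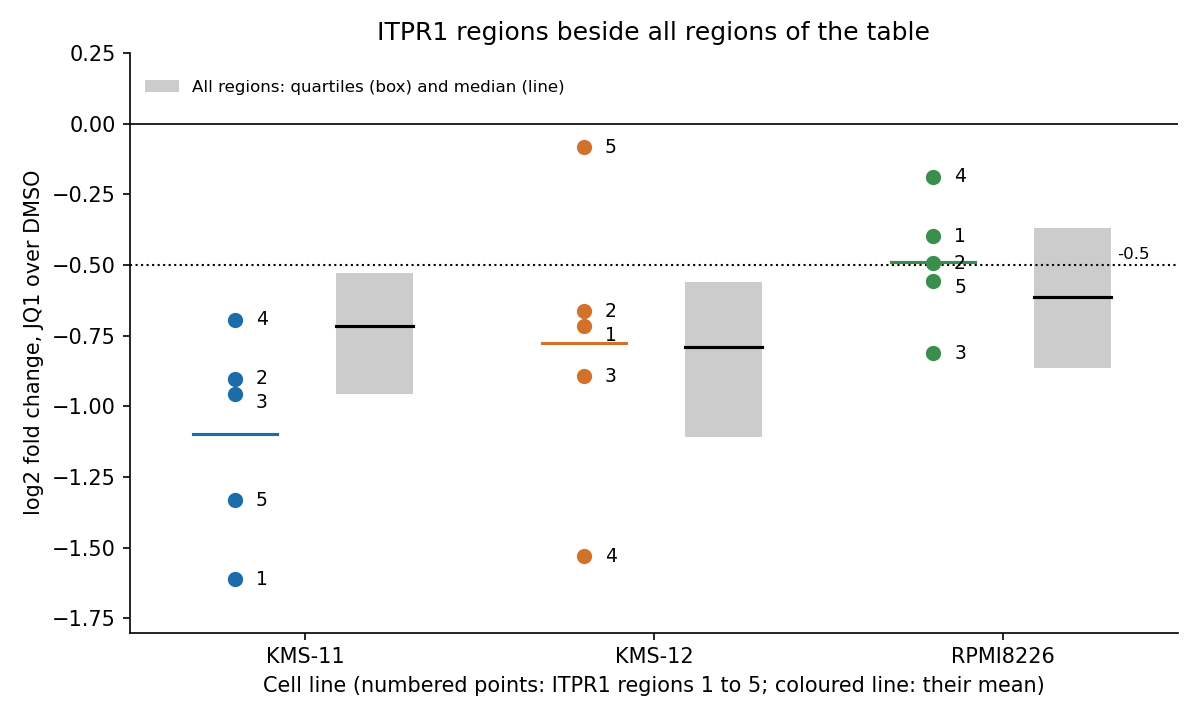
Log2 fold change of JQ1 over DMSO (vertical axis) of the 5 ITPR1 regions (numbered points, coloured line at their mean) and of all 3838 regions (grey box from the lower to the upper quartile, black line at the median) in each cell line. The ITPR1 points lie between -1.61 and -0.69 in KMS-11, and their mean there, -1.10, lies below those in KMS-12 and RPMI8226, where region 5 and region 4 lie nearest to 0.

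Across the gene the lines differed in level. KMS-11 had a mean of -1.10 over the 5 regions, against a mean of -0.75 over all regions. In KMS-12 these means were -0.78 and -0.85, and in RPMI8226 they were -0.49 and -0.65. Medians at ITPR1 and over all regions were -0.96 and -0.71 in KMS-11, -0.72 and -0.79 in KMS-12, and -0.49 and -0.61 in RPMI8226. By both measures KMS-11 was lower at ITPR1 than over the table. KMS-12 was slightly closer to 0 than over the table, and RPMI8226 was closer to 0 as well. Over the 3 lines the gene mean was -0.79 ± 0.30 (SD, n = 3 lines), a JQ1 signal of 57.9% of DMSO in the assumed direction. The median of the means over all regions, -0.71, lay within 1 SD of it. The regions varied among themselves most in KMS-12 (SD 0.52 over the 5 regions), then in KMS-11 (0.37) and RPMI8226 (0.23). These SDs describe regions of 1 gene in 1 pair of libraries and are not replicate error.

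Counts of regions past -0.5 followed the same order. At ITPR1, 5 of 5 regions were at or below -0.5 in KMS-11, against 77.4% of all regions. In KMS-12 it was 4 of 5, against 79.5% of all regions, and in RPMI8226 2 of 5, against 67.8%. The authors counted 1 of the 5 regions in 3 lines, against 24.8% of all regions, and the mean over lines was at or below -0.5 in 5 of 5, against 91.8%. KMS-11 was the lowest of the 3 lines in 4 of 5 ITPR1 regions, against 32.1% of all regions. KMS-12 was the lowest in 1, against 44.6%, and RPMI8226 in 0, against 23.3%. Since the same contrast chose the regions, and regions of 1 gene share their libraries, nothing is read from these counts about the lines or the gene.

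Many folds in the table are exact repeats of one another, and several ITPR1 values were among them. In KMS-12 the value of region 2 occurred in 174 other regions, that of region 3 in 68, that of region 4 in 54 and that of region 5 in 20. In KMS-11 the value of region 4 occurred in 99 other regions and that of region 5 in 59, while those of regions 1 and 3 occurred in 0. In RPMI8226 no ITPR1 value occurred in more than 4 other regions. Values found in at least 10 regions made up 4 of 5 at ITPR1 in KMS-12, 2 of 5 in KMS-11 and 0 of 5 in RPMI8226, against 52.3%, 41.3% and 7.58% of all regions. Region 1 was the only ITPR1 region whose values in both KMS-11 and KMS-12 were found in fewer than 10 regions. The part of these repeats in the folds was not tested.

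No gene held more regions than ITPR1. Of 20037 protein-coding genes, 1508 had a region wholly inside, and 1291 of these had 1. ITPR1 shared the highest count, 5, with DLG2, a synaptic scaffold gene. DLG2 is 2173 kb long, so that ITPR1 held 1.41 regions per 100 kb of gene and DLG2 0.23. A count of 4 was found in 13 genes, of which 3 were long noncoding RNA genes. The protein-coding ones were ARHGAP26 and DENND1A, regulators of small GTPases, the mitochondrial peptidase gene IMMP2L, the transcription factor gene MECOM, the receptor gene ROR1, the neuronal genes NLGN1 and SV2C, the transporter gene SLC35F3, NAALADL2 and XYLT1. Regions per 100 kb in these 10 genes were between 0.29 at NAALADL2 and 1.08 at XYLT1. The noncoding gene RBBP8-AS1, with 4 regions in 210 kb, held more for its length than ITPR1, at 1.90 per 100 kb. ITPR1 was picked for description with this count known, so the count itself is no finding about the gene.

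**Figure D2:**
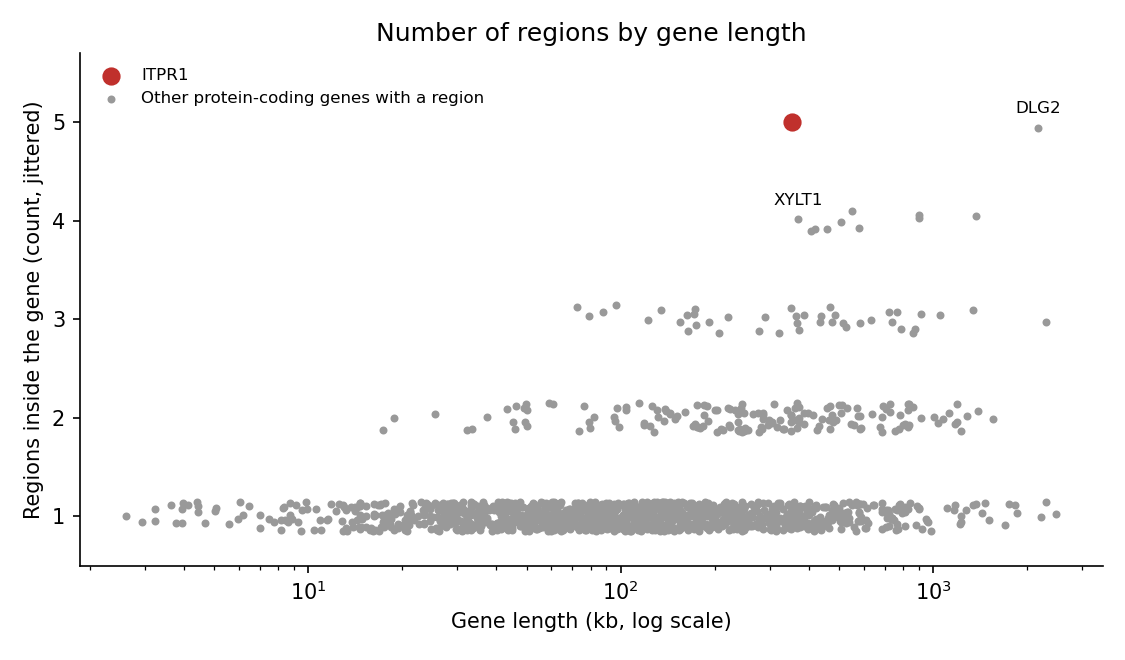
Number of deposited regions wholly inside each protein-coding gene (vertical axis, jittered) against gene length in kb (log scale); each grey point is a gene with at least 1 region. ITPR1 and DLG2 hold 5 each, and ITPR1, at 354 kb, is shorter than DLG2 and than XYLT1, which holds 4.

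Gene length bears on such a count, and 290 protein-coding genes were between 300 and 400 kb long. ITPR1 had 5 regions and XYLT1, a xylosyltransferase gene of proteoglycan synthesis, had 4. Of the others, 6 had 3 regions, 22 had 2, 77 had 1 and 183 had 0. All genes of this length together held 0.148 regions per 100 kb. The number of accessible regions that each gene had before treatment was not analysed here, so the count cannot be set against the open chromatin of the gene.

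XYLT1 was also the gene whose folds were nearest to those of ITPR1. Among 70 genes with at least 3 regions, likeness was measured as the Euclidean distance between the means over a gene's regions in the 3 lines. XYLT1 was 0.15 log2 units away, with a mean for KMS-11 of -1.03, for KMS-12 of -0.72 and for RPMI8226 of -0.37. It was followed by ARHGAP24, a GTPase-activating protein gene for RAC (0.21), NEBL, which encodes an actin-binding protein of heart muscle (0.23), the noncoding RNA gene RBBP8-AS1 (0.24) and MCC, a regulator of Wnt signalling (0.25). The median distance to ITPR1 over the other genes was 0.47. All 5 had their lowest mean in KMS-11, as ITPR1 did. They were chosen for nearness on these same means, so the shared lowest line follows largely from the choice and is no further likeness. Of the 70 genes, ITPR1 included, 32 (45.7%) had their lowest mean in KMS-11. With 3 lines and libraries that all genes share, this likeness is a description.

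**Figure D3:**
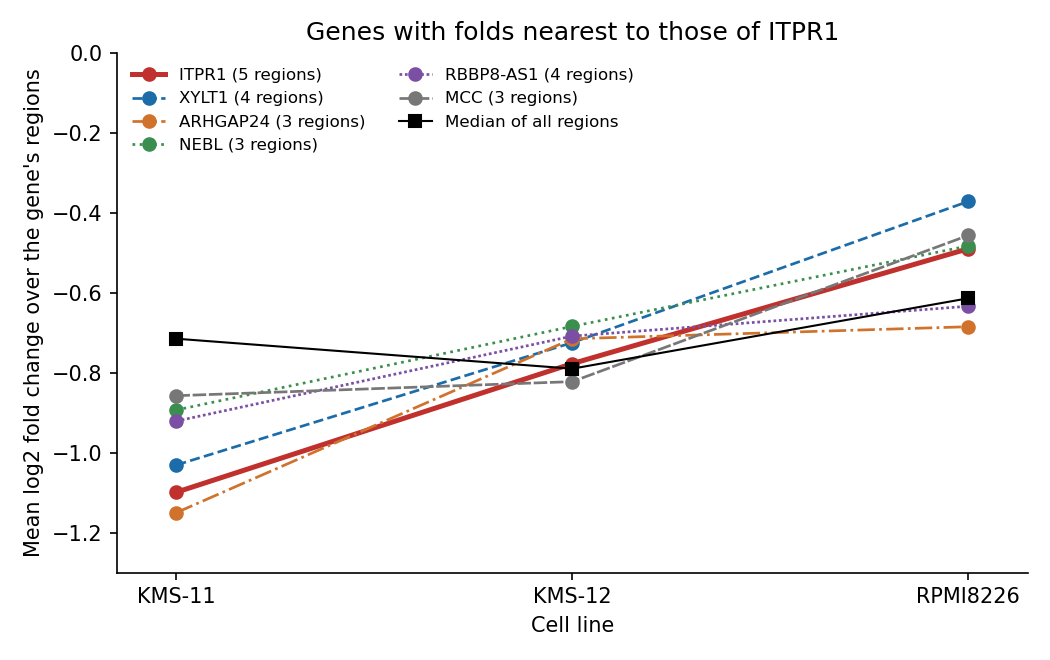
Mean log2 fold change of JQ1 over DMSO over a gene's regions (vertical axis) in each cell line for ITPR1 and the 5 genes nearest to it, with the median of all 3838 regions in black. ITPR1 has -1.10 in KMS-11 and -0.49 in RPMI8226. The 5 genes also have their lowest mean in KMS-11, but they were chosen for nearness on these same means.

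The SD of the 5 ITPR1 region means was 0.11, and 19 of the 70 genes with at least 3 regions had a smaller one (median 0.17). The gene mean of -0.79 was close to the median gene mean of these 70, -0.73, and 25 of them were lower than ITPR1.

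Within 1 Mb of either end of ITPR1, 5 further regions of the table are described. On the upstream side the nearest was inside SUMF1, which encodes an activator of sulfatases, at 170 kb from ITPR1 (chr3:4322622-4322892). The authors' deposited table gave KMS-11 -1.06, KMS-12 -0.66 and RPMI8226 -0.21 there, the same order of lines as at regions 1 to 3. Its mean was -0.64 ± 0.43 (SD, n = 3 lines). Its KMS-12 value was identical to that of ITPR1 region 2, 1 of 175 regions with that value. A region inside the noncoding gene LOC102723512, 477 kb away (chr3:4015588-4016256), had the order again, with a mean of -0.55 ± 0.48 (SD, n = 3 lines).

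On the downstream side was EDEM1, whose product sends misfolded glycoproteins of the endoplasmic reticulum to degradation. A region inside it, 358 kb from ITPR1, was at -1.06 ± 0.25, and another, 10.96 kb beyond EDEM1, at -0.59 ± 0.12 (SD, n = 3 lines each). The latter also had the order of lines of ITPR1 regions 1 to 3, unlike the other downstream regions described. How many of all regions have that order was not counted. Repeated values were found here too. At the region inside EDEM1 the KMS-11 value occurred in 177 other regions and the KMS-12 value in 123. At the region beyond EDEM1 the KMS-11 value occurred in 30 other regions. The farthest of the 5, inside the noncoding gene LOC105376940 and 907 kb from ITPR1, was the lowest of these 10 regions, ITPR1 included, at -1.70 ± 0.57 (SD, n = 3 lines). The 5 ITPR1 means thus lay inside the range of these neighbours, from -1.70 to -0.55.

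**Figure D4:**
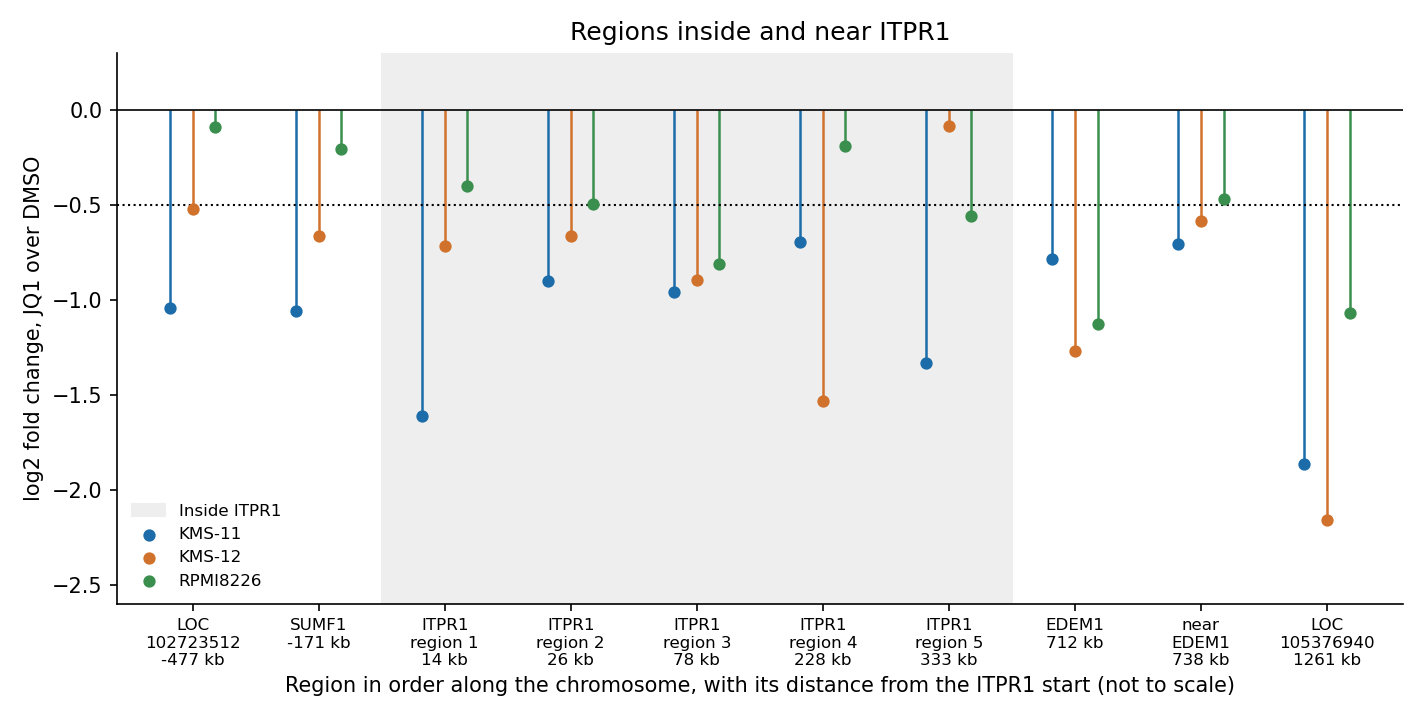
Log2 fold change of JQ1 over DMSO (vertical axis) in the 3 cell lines for 10 regions inside (grey) or within 1 Mb of ITPR1, in order along the chromosome with the distance of each centre from the gene's start in kb; the dotted line is at -0.5. KMS-11 is lowest in 4 of the 5 ITPR1 regions, and the farthest downstream region, in LOC105376940, has the lowest mean, -1.70.

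Of the other calcium release channels, ITPR2 alone had a region. ITPR2 encodes the type 2 IP3 receptor, and its region (chr12:26473371-26473621) had, by the authors' deposited table, -0.99 in RPMI8226, -0.91 in KMS-12 and -0.79 in KMS-11. Its mean was -0.90 ± 0.10 (SD, n = 3 lines), close to those of ITPR1 regions 1 and 3. The order of lines was the reverse of that at ITPR1 regions 1 to 3, with RPMI8226 lowest, as in 23.3% of all regions. The ITPR2 value in KMS-11 was also that of the region inside EDEM1, a much repeated value. Its value in KMS-12 was found at PRKCA too. ITPR3 and the ryanodine receptor genes RYR1, RYR2 and RYR3 had no region inside them or nearest to them within 100 kb. Most protein-coding genes likewise had none inside (1508 of 20037 had one), so this absence is only a description.

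In all, 7 lists of calcium signalling genes held 138 symbols, of which 137 matched the gene table. A region lay inside 28 of these genes, or nearest to them within 100 kb, and 41 regions were counted in this way, 5 of them at ITPR1. Their median of means was -0.71, as over all regions (-0.71), and 10 of the 41 (24.4%) were counted in 3 lines, against 24.8% of all regions. The mean was at or below -0.5 in 36 of the 41, against 91.8% of all regions. These values of the lists were near those of the whole table. Of all 20037 protein-coding genes, 1508 had a region wholly inside. The share of all genes by the wider rule used for the lists was not computed, and gene length was not taken into account. Nothing is therefore read from how many genes of a list had a region.

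Upstream of the channel, 6 of 23 genes listed around the making and removal of IP3 or related inositol compounds had 8 regions, with a median of means of -0.67. The list also holds G protein genes and phospholipase C relatives without enzyme activity. PLCB4, a phospholipase C, had the lowest, at -0.89 ± 0.66, and a second at -0.68 ± 0.09 (SD, n = 3 lines each). At the lower PLCB4 region the authors' deposited table gave KMS-12 -1.50, KMS-11 -0.99 and RPMI8226 -0.18, an order like that of ITPR1 region 4. KMS-12 was the lowest line in 44.6% of all regions. The share of all regions with this full order was not counted. PLCB1, another phospholipase C, had 2 regions, at -0.71 ± 0.083 and -0.65 ± 0.44 (SD, n = 3 lines each). INPP4A, a phosphatase of inositol lipids, stood at -0.77 ± 0.34, and PLCL1, a phospholipase C relative without enzyme activity, at -0.61 ± 0.36 (SD, n = 3 lines each). The regions of the remaining genes of the list lay outside them, 45.0 kb from INPP4B (-0.49 ± 0.39) and 22.5 kb from the G protein gene GNAQ (-0.47 ± 0.40; SD, n = 3 lines each).

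Among 33 genes for proteins that bind or regulate IP3 receptors, 5 had 7 regions, with a median of -0.67. IRAG1, which encodes a partner of IP3 receptors in the cGMP kinase pathway, was the lowest, at -1.08 ± 0.40 (SD, n = 3 lines). The ankyrin gene ANK2 had regions at -0.86 ± 0.73 and -0.58 ± 0.23, and ANK3 at -0.78 ± 0.67 and -0.67 ± 0.44 (SD, n = 3 lines each). ANK2 and ITPR1 region 5 shared their KMS-12 value of -0.083, and IRAG1, ANK3 and ITPR1 region 4 shared that of -1.53, both among the repeated values. A region 5.95 kb from ITPRIPL2, a relative of the receptor-interacting protein gene ITPRIP, stood at -0.59 ± 0.098. One inside BCL2, whose product binds IP3 receptors, stood at -0.44 ± 0.14 (SD, n = 3 lines each).

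Of 31 genes of calcium pumps, exchangers and store-operated entry, all but ORAI1 matched the gene table, so regions at ORAI1 were not looked up. Of the 30 matched genes, 4 had 1 region each, with a median of -0.73. They were SLC8A1 (-0.86 ± 0.66) and SLC8A2 (-0.66 ± 0.11), exchangers that carry calcium out across the plasma membrane, the calcium sensor gene STIM1 (-0.80 ± 0.45) and the cation channel gene TRPC5 (-0.45 ± 0.35; SD, n = 3 lines each). None of the 8 mitochondrial calcium uptake genes had a region. Only 1508 of all 20037 protein-coding genes had one inside, so nothing is read from this absence.

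Calcium-dependent effectors had the most regions of the lists, 14 at 9 of 26 genes, with a median of -0.71. This count was not set against gene length or against all genes. NFATC2, a transcription factor gene activated through calcineurin, held the lowest of the 41, at -1.24 ± 0.48, and a second region at -0.79 ± 0.26 (SD, n = 3 lines each). The KMS-11 value of the lower NFATC2 region was the repeated one also found at ITPR2. Other repeated values in the lists are not all named here. PRKCB, a calcium-dependent protein kinase C gene, had 3 regions, at -1.11 ± 0.32, -0.91 ± 0.15 and -0.62 ± 0.44 (SD, n = 3 lines each). A region 56.2 kb outside its nearest gene, the calcineurin gene PPP3CA, was at -1.02 ± 0.64. One inside the calmodulin kinase gene CAMK2A was at -0.95 ± 0.52 (SD, n = 3 lines each). CAMK1D, a further calmodulin kinase gene, had 3 regions, the lowest at -0.72 ± 0.20, and CAMK1G had 1 at -0.71 ± 0.29 (SD, n = 3 lines each). Of 11 genes of B cell receptor calcium signalling, the kinase genes BLK (-0.72 ± 0.20) and BTK (-0.54 ± 0.42; SD, n = 3 lines each) had 1 region each. Both had their lowest value in KMS-11, as did 32.1% of all regions.

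**Figure D5:**
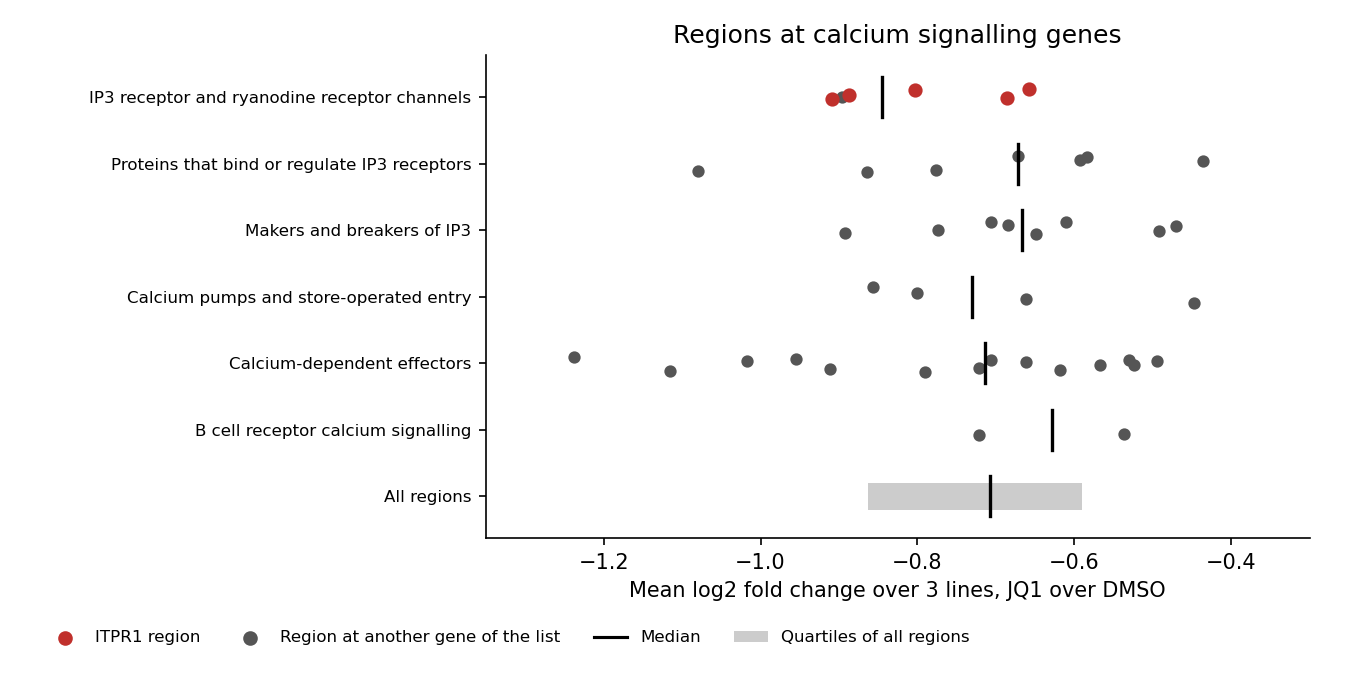
Mean log2 fold change of JQ1 over DMSO over the 3 lines (horizontal axis) of each region at the listed calcium genes, ITPR1 in red and other genes in grey, with the median of each list and, at the bottom, the quartiles and median of all 3838 regions. The ITPR1 regions lie between -0.91 and -0.66, and list medians lie between -0.85 for the channels and -0.63 for B cell receptor genes. The channel list has 6 regions, 5 of them those of ITPR1 itself, and the B cell receptor list has 2.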

How the data were processed

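A single table was deposited by the authors: for each region a log2 fold change per line (3 lines) and, as another column, how many lines had it in common. The submitters' processing notes name MACS2, DESeq2, hg38 and GRCh38.p13 without roles. How reads were aligned, filtered, shifted for the transposase and scaled is not given in the sources used here. Base and direction are not in the header: base 2 was taken, as DESeq2 folds have it, and JQ1 over DMSO from the labels. The design text speaks of duplicates, the labels of 1 library per line and treatment. A fold was counted as past the threshold at or below -0.5.

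Means and SDs over lines were computed with pandas 2.3.3 in Python 3.11.15. No test was run, because the table was selected on the same contrast. Genes came from the NCBI RefSeq table for GRCh38.p14 (20037 protein-coding and 18303 long noncoding), used for names, lengths and distances. A region counted for a gene when wholly inside it, otherwise for the nearest gene within 100 kb. ITPR1, the 7 lists, the 6 motifs and the naming rule were chosen with earlier results of these data known. Named were all ITPR1 regions, those within 1 Mb (1 is not reported here), up to 12 of the genes with most regions, the 5 genes nearest in fold, and per list at most 6 genes. Leaving out lines, centring, medians and other limits were tried.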

Additional observations from a re-analysis of the deposited data

How the results depend on the processing

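Of 79 alternative values for 15 results, 63 counted as unmoved. They moved by less than the SD over lines or, for counts, by a factor of at most 1.5. The 6 that changed sign did so when folds were centred on the median of all regions in each line. Of the 10 others, 7 were also under centring. No other setting could change a sign, since every fold of the table is below 0. For the region means and the gene mean, leaving out 1 of 3 lines or taking the median over lines cannot move the value by the SD. For these means, such settings therefore counted as unmoved in advance and say nothing about stability. Centring puts the median region at 0 by construction. It gave an ITPR1 gene mean of -0.082, with region 2 at 0.020 and region 5 at 0.049. Medians under centring were 0.00047 over all calcium genes and 0.034 for IP3 receptor regulators. They were 0.040 for the list around IP3 making and removal and 0.077 for B cell receptor genes. The 5 region means thus lay between -0.20 and 0.049 from the median region. Leaving out 1 line at a time gave an ITPR1 gene mean between -0.94 (without RPMI8226) and -0.63 (without KMS-11), and a median over all calcium genes between -0.77 and -0.68. Single regions moved more: region 1 lay between -1.16 and -0.56, region 4 between -1.11 and -0.44 and region 5 between -0.94 and -0.32, while region 2 (-0.78 to -0.58) and region 3 (-0.93 to -0.85) moved less. The number of regions inside ITPR1 was 5 also when overlapping or within 10 kb, and 1, region 1, where both the KMS-11 and the KMS-12 value had to occur in fewer than 10 regions. With the limit at -0.4 the number of ITPR1 regions past it in 3 lines was 2 (39.4% of all regions), at -0.6 it was 1 (15.6%) and at -1 it was 0 (1.02%). Each fold is itself the paired difference of 1 line, and no test over the 3 pairs was run because the table was selected on that contrast. Depth is unknown, so the counting error of each fold cannot be given.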
